A study of Homo sapiens with 12 samples.

Results

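The genes described here are 10 ATP-binding cassette (ABC) transporters known for moving drugs across membranes. They were chosen by symbol from a table of 58395 human genes: ABCB1, ABCC1, ABCC2, ABCC3, ABCC4, ABCC5, ABCC10, ABCG2, ABCA2 and ABCA3. Their read counts were compared in 12 RNA-sequencing libraries, 4 from each of 3 leukemia cell lines. K562 is an established human leukemia line of erythroid character with a BCR-ABL fusion gene. K/VP.5, derived from it, is 1 clone selected for resistance to etoposide, a poison that holds topoisomerase II on cleaved DNA, and has a lower level of full-length topoisomerase IIα beside a truncated isoform. K/VP.5/edit-3 (edit-3 below) is 1 clone of K/VP.5 that was made by transfecting Cas9 protein with a guide and a repair oligonucleotide that changes the 5′ splice site of exon 19 in the topoisomerase IIα gene TOP2A. Edit-3 thus descends from K/VP.5, and its levels need not match those of that clone. The growth protocol names 0.5 µM etoposide every other week for the 3 lines in 1 sentence, so it does not separate K562 from the others. Each subline is 1 clone, so a difference between lines could not be told apart from a difference between clones.

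An ABC transporter couples the binding and hydrolysis of ATP at its pair of nucleotide-binding domains to a change of shape that carries a substrate out of the cell or into a vesicle. ABCB1 (P-glycoprotein), ABCC1 (MRP1) and ABCG2 (BCRP) are the pumps best known for multidrug resistance in leukemia, and etoposide is a known substrate of ABCB1, ABCC1 and ABCC3. The other ABCC members export mainly organic anions, such as conjugates with glutathione, glucuronate or sulfate, and cyclic nucleotides. ABCA2 and ABCA3 move lipids and sit mostly in the membranes of intracellular vesicles.

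CPM stands for counts per M reads of a library, with TMM scaling, which corrects library size for differences in composition. Fold changes are on the log2 scale with a standard error (SE), and a gene counted as changed when its p-value in edgeR's quasi-likelihood test, adjusted by the Benjamini-Hochberg method over 18286 genes, was under 0.05. Libraries held 25.3 to 37.1 M reads, with a median of 29.6 M. TOP2A stood at 490 to 543 CPM in the K562 libraries, 339 to 370 in K/VP.5 and 383 to 437 in edit-3, a count that sums over transcripts and does not check the edit. All 10 erythroid and K562 markers were present (summed level 3292 to 5297 CPM over the 12 libraries). The lymphoid and the monocyte and granulocyte lists each had 4 of 6 genes below 1 CPM in every library, MS4A1 at 0 reads throughout, CD3D at 7.57 to 77.0 CPM and ELANE at no more than 0.121 CPM. The 5 epithelial markers summed to 902 to 1981 CPM in K562, 1061 to 1658 in K/VP.5 and 1553 to 2556 in edit-3. Of these, KRT8 averaged 642, 768 and 1111 CPM in the 3 lines, and EPCAM, KRT18 and KRT19 averaged 123 to 331 CPM. CDH1 was low, at 0.31, 2.45 and 0.22 CPM. The 5 fibroblast markers summed to 6.69 to 13.4, 210 to 290 and 1687 to 2967 CPM, most of it COL1A2. Of the other fibroblast markers, COL1A1 averaged 1.47, 18.8 and 7.55 CPM and PDGFRB 0.962, 1.47 and 5.02 CPM in K562, K/VP.5 and edit-3, while COL3A1 (at most 1.17 CPM) and DCN (at most 0.0668 CPM) stayed low in every library, and the part of these genes in the transporter results was not tested. Separate cultures are not stated for the 4 libraries of a line, and a p-value here reflects no more than their spread, which may be technical.

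Of the 10 transporters, 8 had enough reads to be tested. K/VP.5 differed from K562 in 5 of the 8, with ABCC1, ABCG2, ABCC4 and ABCA3 higher and ABCC5 lower, where 36.6% of all tested genes changed. Edit-3 differed from K/VP.5 in 5 of the 8, with ABCC3 and ABCA3 higher and ABCC1, ABCG2 and ABCC10 lower, against 23.6% of all genes. Edit-3 differed from K562 in 6 of the 8, with ABCC3, ABCA3, ABCC4 and ABCA2 higher and ABCC1 and ABCC5 lower, against 39.2% of all genes. The median size of the log2 fold change, ignoring sign, was 0.63, 0.63 and 0.81 over the 8 members in these comparisons and 0.30, 0.23 and 0.32 over all tested genes. The libraries of the lines compared did not overlap in 5, 4 and 4 of the 8 members, against 37.4%, 26.0% and 34.0% of all genes. K/VP.5 enters the first pair of comparisons and K562 and edit-3 also enter more than 1, so the comparisons are not independent of each other. ABCG2 and ABCC3 averaged under 1 CPM in K562 and passed the low-count filter through libraries of the other lines, so these counts describe the genes and support nothing further. The count for edit-3 versus K/VP.5 was 3 in place of 5 without K/VP.5 replicate 2, without K/VP.5 replicate 3, or with no filter on low counts.

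**Figure D1:**
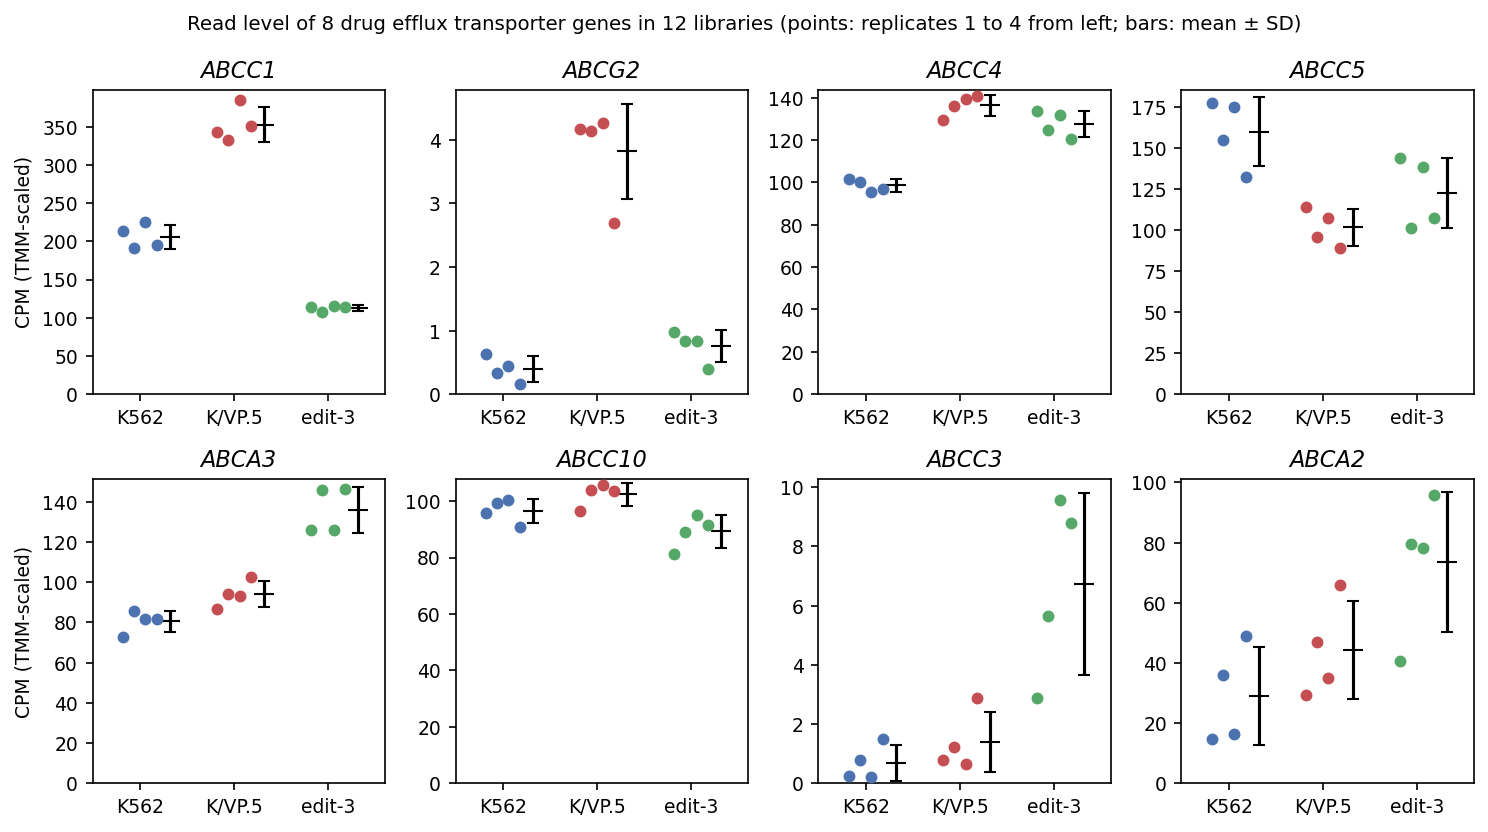
Read level (CPM, TMM-scaled, y axis from 0) of the 8 tested transporter genes in K562, K/VP.5 and edit-3; points are the 4 libraries of a line and the bar beside them the mean ± SD. ABCC1 separates the 3 lines without overlap, ABCG2 is high in K/VP.5, ABCC3 is high in edit-3, and ABCA2 and ABCC3 spread widely among libraries of 1 line.

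ABCC1 encodes MRP1, which exports glutathione conjugates, leukotriene C4 and several anticancer drugs, and lies on chromosome 16 at 15949577 to 16143074 (GRCh38, plus strand, ENSG00000103222). Its levels were 213, 191, 225 and 195 CPM in K562 replicates 1 to 4. In K/VP.5 they were 343, 332, 385 and 351 CPM. In edit-3 they were 114, 107, 116 and 114 CPM. The 3 lines did not overlap, and the 4 edit-3 libraries lay closest together. The means were 206 ± 15.9, 353 ± 22.6 and 113 ± 3.62 CPM (SD, n = 4 each). K/VP.5 was 1.71-fold above K562 (log2 0.77, SE 0.071, adjusted p = 7.0e-07). Edit-3 was 3.13-fold below K/VP.5 (log2 -1.64, SE 0.073, adjusted p = 5.8e-10) and 1.83-fold below K562 (log2 -0.87, SE 0.072, adjusted p = 1.8e-07), so the order from low to high was edit-3, K562 and K/VP.5 with every step past the test. Over 21 alternatives, the highest adjusted p of the 3 comparisons was 8.4e-06. In a bulk sample fewer cells with a transcript and less transcript per cell cannot be told apart.

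Most tested genes beside ABCC1 moved in its direction, though not all of them in every comparison. Of the 20 nearest tested genes, 10 on each side between 15363624 and 16664135 of chromosome 16, 14 were higher and 0 lower in K/VP.5 than in K562, with a median log2 fold change of 0.81 beside 0.77 for ABCC1. All 20 were lower in edit-3 than in K/VP.5 (median -1.46 beside -1.64), and 14 were lower and 0 higher in edit-3 than in K562 (median -0.85 beside -0.87). Of all tested genes, 18.3% were higher in K/VP.5 than in K562. The shares lower were 10.6% in edit-3 versus K/VP.5 and 18.6% in edit-3 versus K562. ABCC6, next to ABCC1, did not pass in edit-3 versus K562 (log2 0.004, SE 0.25, adjusted p = 0.99). FOPNL, upstream of ABCC1, had log2 fold changes of 0.95 in K/VP.5 versus K562 and -1.56 in edit-3 versus K/VP.5 (SE 0.089 and 0.091, adjusted p = 8.6e-07 and 1.1e-08). NDE1, a centrosome gene further upstream, rose by 0.80 and fell by 1.36 (SE 0.15 each, adjusted p = 0.00064 and 1.2e-05). Some neighbours, such as NOMO3, the NPIPA genes, PKD1P1 and ABCC6, have near-identical copies that can share reads, which makes their own values uncertain. With 20 protein-coding neighbours instead, an alternative chosen after seeing the data, the medians were 0.61, -1.43 and -0.65.

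ABCG2 encodes BCRP, a pump of a single transporter domain that works as a dimer and is known for resistance to mitoxantrone and topotecan. The gene spans 88090264 to 88231322 of chromosome 4 (minus strand, ENSG00000118777). It was a low gene in every line. K562 libraries held 18, 10, 13 and 4 reads, or 0.636, 0.328, 0.444 and 0.161 CPM. K/VP.5 libraries held 147, 117, 117 and 101 reads, or 4.17, 4.14, 4.26 and 2.69 CPM. Edit-3 libraries held 30, 25, 23 and 13 reads, or 0.97, 0.83, 0.83 and 0.39 CPM. Every K/VP.5 library lay above all 8 others, while the K562 and edit-3 ranges overlapped. K/VP.5 was 9.51-fold above K562 (log2 3.25, SE 0.33, adjusted p = 1.7e-06), and edit-3 was 5.04-fold below K/VP.5 (log2 -2.33, SE 0.30, adjusted p = 3.9e-05). Edit-3 had a mean of 0.756 ± 0.25 CPM against 0.392 ± 0.20 in K562 (n = 4), a log2 difference of 0.92 (SE 0.36, adjusted p = 0.058) that did not pass, so these neighbours in the order were not separated. That difference passed without K562 replicate 1 (1.23, adjusted p = 0.021), without edit-3 replicate 4 (1.13, adjusted p = 0.018), with upper quartile scaling (0.97, adjusted p = 0.044), with no filter (0.91, adjusted p = 0.041) and in DESeq2 (0.91, adjusted p = 0.048).

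The 20 tested genes nearest to ABCG2 had medians of 0.02, -0.13 and -0.10 (log2 fold change) in the 3 comparisons, beside 3.25, -2.33 and 0.92 for ABCG2 itself. Only 2 of them lay above ABCG2 in K/VP.5 versus K562 and 1 below it in edit-3 versus K/VP.5.

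ABCB1 and ABCC2 were the members too low to test. ABCB1 encodes P-glycoprotein, the first multidrug pump described, and spans 87503633 to 87713323 of chromosome 7 (minus strand, ENSG00000085563). It had 0 reads in all 12 libraries. A count of 0 allows up to 3 reads in the 4 libraries of a line (a one-sided 95% limit), or 0.026 reads per M in K562, 0.0236 in K/VP.5 and 0.0249 in edit-3 (counting error only), and a difference below that was not detectable at this depth. The gene RUNDC3B, which overlaps it on the opposite strand, had 54 reads over the 12 libraries. ABCC2 encodes MRP2, the organic anion pump of the bile canaliculus, and spans 99782640 to 99852594 of chromosome 10 (plus strand, ENSG00000023839). It had 5, 10, 9 and 6 reads in K562, 8, 4, 9 and 7 in K/VP.5, and 3, 6, 9 and 4 in edit-3. The sums of 30, 28 and 22 reads have exact 95% Poisson intervals of 20.2 to 42.8, 18.6 to 40.5 and 13.8 to 33.3, which overlap and cover counting error only.

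ABCC3 encodes MRP3, an exporter of glucuronides and of etoposide, at 50634777 to 50692252 of chromosome 17 (plus strand, ENSG00000108846). K562 libraries had 7, 24, 6 and 37 reads, or 0.248, 0.786, 0.205 and 1.49 CPM. K/VP.5 libraries had 28, 35, 18 and 108 reads, or 0.794, 1.24, 0.655 and 2.88 CPM. Edit-3 libraries had 89, 169, 265 and 292 reads, or 2.88, 5.64, 9.55 and 8.80 CPM. The lowest edit-3 library met the highest K/VP.5 library at 2.88 CPM, and all 4 edit-3 libraries lay above K562. Edit-3 was 10.0-fold above K562 (log2 3.32, SE 0.65, adjusted p = 0.0016) and 4.73-fold above K/VP.5 (log2 2.24, SE 0.59, adjusted p = 0.017). K/VP.5 had a mean of 1.39 ± 1.02 CPM against 0.682 ± 0.60 in K562 (n = 4), with a log2 difference of 1.08 (SE 0.68, adjusted p = 0.25), and the K562 and K/VP.5 levels were not separated. Between libraries of the same replicate number, K/VP.5 was above K562 in 4 of 4 pairs, by 1.61, 0.65, 1.60 and 0.94. With the replicate number as a block in the fit, the difference did not pass (log2 1.08, SE 0.45, adjusted p = 0.080). The pairing of these libraries is only a hint from the data. Single libraries weighed on the ABCC3 values. Without K/VP.5 replicate 4 the log2 fold change of edit-3 versus K/VP.5 was 2.88 and that of K/VP.5 versus K562 was 0.42, and without K562 replicate 4 edit-3 versus K562 was 3.99 and K/VP.5 versus K562 was 1.75. The edit-3 versus K/VP.5 call ended without K/VP.5 replicate 1, 2 or 3 (log2 2.02, 2.17 and 2.02, adjusted p = 0.058, 0.052 and 0.0504) and with no filter (2.23, adjusted p = 0.059). None of the 20 nearest tested genes had a log2 fold change as high as that of ABCC3 in either edit-3 comparison (medians -0.07 and 0.02).

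ABCC4 encodes MRP4, which exports cyclic nucleotides, prostaglandins and nucleotide analogues, at 95019829 to 95301475 of chromosome 13 (minus strand, ENSG00000125257). Levels were 101, 100, 95.5 and 96.7 CPM in K562. In K/VP.5 they were 130, 136, 139 and 141 CPM, and in edit-3 134, 125, 132 and 120 CPM. Every K/VP.5 and edit-3 library lay above every K562 library, while K/VP.5 and edit-3 overlapped. K/VP.5 was above K562 (log2 0.47, SE 0.062, adjusted p = 2.6e-05) as was edit-3 (log2 0.37, SE 0.062, adjusted p = 0.00019). Between edit-3 and K/VP.5 the log2 difference was -0.10 (SE 0.062, adjusted p = 0.30), so those lines were not separated. The 20 nearest tested genes had medians of 0.49, 0.08 and 0.67 in K/VP.5 versus K562, edit-3 versus K/VP.5 and edit-3 versus K562. In each subline 13 of the 20 were higher and 2 lower than in K562. Of all tested genes, 18.3% were higher and 18.3% lower in K/VP.5 than in K562. For edit-3 versus K562 these shares were 20.6% and 18.6%. In that comparison 15 of the 20 neighbours lay above ABCC4.

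ABCC5 encodes MRP5, a widely expressed exporter of cyclic nucleotides and glutamate conjugates, at 183919934 to 184018015 of chromosome 3 (minus strand, ENSG00000114770). Levels were 177, 155, 175 and 132 CPM in K562. In K/VP.5 they were 114, 95.7, 107 and 89.1 CPM, and in edit-3 144, 101, 138 and 107 CPM. All K/VP.5 libraries lay below all K562 libraries, and edit-3 overlapped both. K/VP.5 was below K562 (log2 -0.66, SE 0.13, adjusted p = 0.00088), as was edit-3 (log2 -0.38, SE 0.13, adjusted p = 0.027). Edit-3 and K/VP.5 differed by 0.27 (SE 0.13, adjusted p = 0.14) and were not separated. The edit-3 versus K562 call ended without K562 replicate 1 or 3 or edit-3 replicate 2 or 4 (log2 -0.33, -0.34, -0.30 and -0.33, adjusted p = 0.0755 to 0.0794). The 20 nearest tested genes had medians of -0.80, 0.41 and -0.44 in the 3 comparisons, in each case the sign of ABCC5. Of these 20, 1 was higher and 14 lower in K/VP.5 than in K562, 7 were higher and 0 lower in edit-3 than in K/VP.5, and 2 were higher and 11 lower in edit-3 than in K562, where 18.3%, 12.9% and 20.6% of all tested genes were higher and 18.3%, 10.6% and 18.6% lower.

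ABCC10 encodes MRP7, known for resistance to taxanes, at 43427366 to 43450430 of chromosome 6 (plus strand, ENSG00000124574). It had the most even levels of the 8 members. They were 95.7, 99.3, 100.4 and 90.8 CPM in K562, 96.5, 104, 106 and 104 in K/VP.5, and 81.2, 89.1, 95.2 and 91.6 in edit-3. K562 overlapped both sublines, and the edit-3 libraries lay below the K/VP.5 libraries. Edit-3 was below K/VP.5 (log2 -0.20, SE 0.068, adjusted p = 0.048). The call ended without K562 replicate 1 or 3, without K/VP.5 replicate 2, 3 or 4, and without edit-3 replicate 1, 2 or 4 (log2 -0.16 to -0.23, adjusted p = 0.0557 to 0.116), with upper quartile scaling (-0.18, adjusted p = 0.066), with no filter (-0.22, adjusted p = 0.11) and in a fit of the 2 lines alone (-0.21, adjusted p = 0.051). K/VP.5 versus K562 gave 0.09 (adjusted p = 0.36) and edit-3 versus K562 gave -0.11 (adjusted p = 0.22). With the replicate number as a block, K/VP.5 versus K562 did not pass either (log2 0.09, adjusted p = 0.29). DLK2 overlaps ABCC10 on the opposite strand at up to 4.69 CPM, and the use of strand in counting was not given in the sources used here.

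ABCA3 encodes a phospholipid transporter of lamellar bodies in the lung and of vesicles in leukemia cells, at 2275881 to 2340746 of chromosome 16 (minus strand, ENSG00000167972). Levels were 73.0, 85.6, 81.5 and 81.9 CPM in K562. In K/VP.5 they were 86.5, 94.3, 93.0 and 102.5 CPM, and in edit-3 126, 146, 126 and 146 CPM. The 3 lines did not overlap, although the highest K562 and the lowest K/VP.5 library were under 1 CPM apart. Edit-3 was above K/VP.5 (log2 0.53, SE 0.081, adjusted p = 0.00019) and above K562 (log2 0.76, SE 0.081, adjusted p = 2.8e-06). K/VP.5 was above K562 by 0.22 (SE 0.081, adjusted p = 0.041), which no longer passed after leaving out replicate 1, 3 or 4 of K562, replicate 2, 3 or 4 of K/VP.5 (log2 0.18 to 0.23, adjusted p = 0.0542 to 0.119) and with no filter (0.24, adjusted p = 0.065). With the replicate number as a block, K/VP.5 versus K562 passed (log2 0.22, SE 0.061, adjusted p = 0.0093), though the pairing is only a hint. ABCA3 stands on the same chromosome arm as ABCC1 but its neighbours moved otherwise. Of the 20 nearest tested genes, 0 were higher and 12 lower in K/VP.5 than in K562 (median -0.52), and ABCA3 lay above all 20. Of all tested genes, 18.3% were higher and 18.3% lower. In edit-3 versus K/VP.5 the neighbours had a median of 0.42 with 7 higher and 0 lower, beside 12.9% and 10.6% of all tested genes. In edit-3 versus K562 their median was -0.06, and 1 of the 20 lay above ABCA3. The pseudogene ABCA17P overlaps ABCA3 on the opposite strand at up to 2.68 CPM.

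ABCA2 encodes a lipid transporter of endosomes and lysosomes known for resistance to estramustine, at 137007227 to 137028922 of chromosome 9 (minus strand, ENSG00000107331). Levels were 14.8, 36.0, 16.4 and 49.0 CPM in K562. In K/VP.5 they were 29.4, 47.1, 35.0 and 65.8 CPM, and in edit-3 40.7, 79.7, 78.2 and 95.8 CPM. The ranges of all 3 lines overlapped. The means were 29 ± 16.4, 44.3 ± 16.1 and 73.6 ± 23.3 CPM (SD, n = 4). Edit-3 was 2.54-fold above K562 (log2 1.34, SE 0.43, adjusted p = 0.029). The call ended without K562 replicate 1 or 3 or edit-3 replicate 2, 3 or 4 (log2 1.12, 1.14, 1.30, 1.31 and 1.17, adjusted p = 0.0543 to 0.0779) and with no filter (1.34, adjusted p = 0.073). K/VP.5 versus K562 gave 0.61 (SE 0.43, adjusted p = 0.30) and edit-3 versus K/VP.5 gave 0.73 (SE 0.42, adjusted p = 0.25), and neither passed. Between libraries of the same replicate number, K/VP.5 was above K562 in 4 of 4 pairs, by 0.99, 0.39, 1.09 and 0.42 on the log2 scale. With the replicate number as a block in the fit of all 12 libraries, K/VP.5 versus K562 passed (log2 0.69, SE 0.18, adjusted p = 0.011). That fit also used the edit-3 libraries, which were not taken as paired. The pairing of K562 with K/VP.5 libraries is itself only a hint from these data. The 20 nearest tested genes had medians of -0.19, 0.20 and -0.002 in the 3 comparisons.

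**Figure D2:**
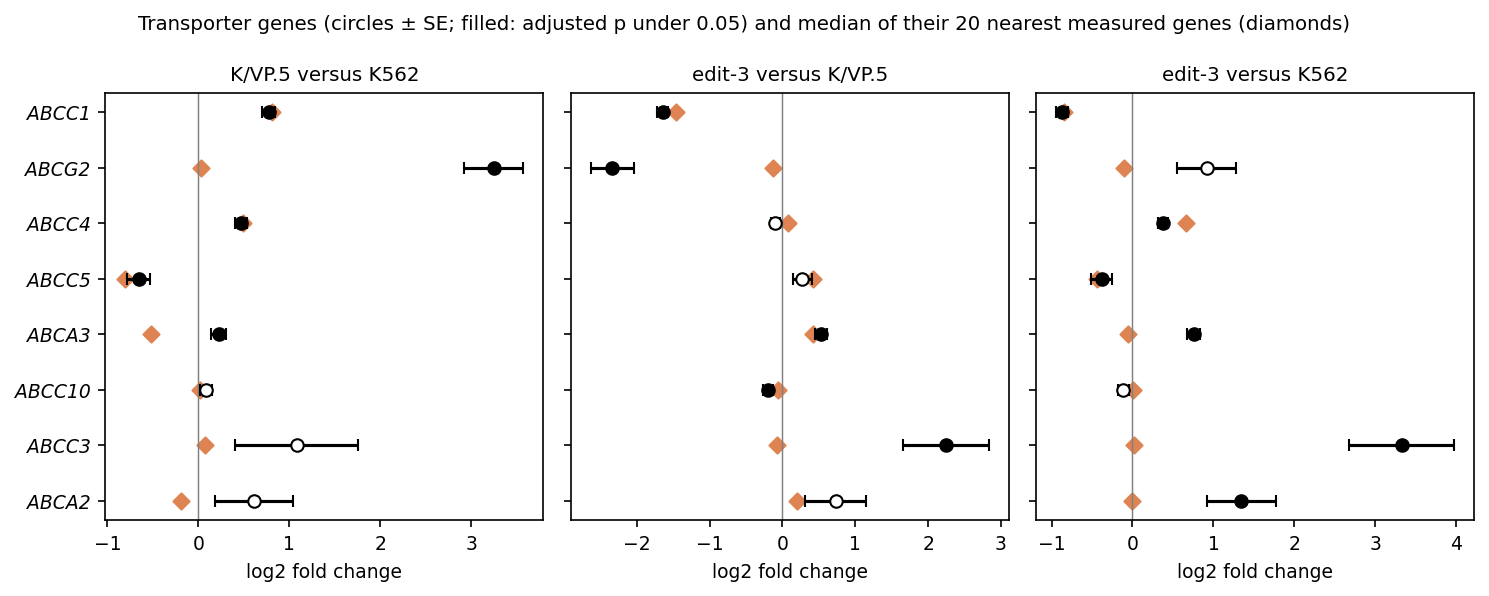
Log2 fold change (x axis) of the 8 tested transporter genes in the 3 comparisons: circles with SE bars are the genes, filled where the adjusted p was under 0.05, and diamonds are the medians of the 20 nearest tested genes. ABCC1, ABCC4 and ABCC5 lie near the diamonds of their own neighbours in K/VP.5 versus K562, while ABCG2, ABCC3 in the edit-3 comparisons and ABCA3 versus K562 lie apart from theirs.

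Sequence upstream of the start is shown for ABCG2 and ABCA3, which lay above all but 2 or fewer of their 20 neighbours in both comparisons with K562, and for ABCA2, which lay above 15 of 20. ABCA3 did not lie apart in edit-3 versus K/VP.5, where 7 of 20 neighbours were above it, and the ABCA2 differences from K562 had SEs of 0.43 each. Of the differences used for this choice, ABCG2 in edit-3 versus K562 (adjusted p = 0.058) and ABCA2 in K/VP.5 versus K562 (adjusted p = 0.30) did not pass. For ABCC1 and ABCC3 no sequence was used here. For each gene the longest stretch without an annotated exon (GENCODE 29) within the 250 bases before any of its RefSeq transcription starts is given, in GRCh38.p14, read 5′ to 3′ on the gene's strand, minus for all 3. A stretch of 135 bases before another ABCG2 start is added, and it was chosen after its matches were seen. The stretches are chr4:88231627-88231876 for ABCG2, chr4:88159025-88159159 for the other ABCG2 start, chr9:137028923-137029172 for ABCA2 and chr16:2340747-2340921 for ABCA3. Capitals mark matches on either strand to the GC box GGGCGG, to TGACNNNGC, which is the core of the antioxidant response element bound by NRF2, to GCGTG, the core bound by the aryl hydrocarbon receptor, and to the E-box letters CACGTG. No 2 matches overlap in these stretches. Matches to TATAAA, the usual form of a promoter element near the start, to the letters CCAAT and to the GATA factor letters AGATAA were also searched on both strands.
ABCG2: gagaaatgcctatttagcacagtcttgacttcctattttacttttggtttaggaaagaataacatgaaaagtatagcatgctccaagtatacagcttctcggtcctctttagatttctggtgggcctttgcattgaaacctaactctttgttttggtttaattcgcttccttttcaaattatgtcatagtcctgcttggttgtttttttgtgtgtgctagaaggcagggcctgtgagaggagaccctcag
ABCG2, other start: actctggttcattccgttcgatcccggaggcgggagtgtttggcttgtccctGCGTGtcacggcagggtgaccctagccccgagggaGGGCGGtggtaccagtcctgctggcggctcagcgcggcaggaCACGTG
ABCA2: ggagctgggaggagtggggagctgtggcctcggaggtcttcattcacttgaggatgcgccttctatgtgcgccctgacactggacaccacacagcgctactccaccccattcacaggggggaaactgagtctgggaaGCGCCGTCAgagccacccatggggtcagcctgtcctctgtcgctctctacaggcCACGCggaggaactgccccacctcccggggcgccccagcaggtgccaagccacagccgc
ABCA3: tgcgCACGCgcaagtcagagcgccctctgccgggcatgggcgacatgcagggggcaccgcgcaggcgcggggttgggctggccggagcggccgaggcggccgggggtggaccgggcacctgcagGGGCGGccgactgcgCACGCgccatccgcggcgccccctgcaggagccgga

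In the whole 250-base window, the first ABCG2 start had 0 matches to all 7 motifs, and so did another ABCG2 start whose free stretch of 217 bases is not shown. The added ABCG2 start had 2 GC boxes, 2 aryl hydrocarbon receptor cores, 1 E-box and 0 antioxidant cores. The ABCA2 window had 1 antioxidant core and 1 aryl hydrocarbon receptor core, with 0 GC boxes. The ABCA3 window had 1 GC box, 1 antioxidant core and 2 aryl hydrocarbon receptor cores. The other 3 motifs had 0 matches in these windows. Among 35116 RefSeq promoter windows of the same length, 42.6% held a GC box, 10.9% an antioxidant core, 32.2% an aryl hydrocarbon receptor core, 6.34% an E-box, 10.7% the TATAAA letters, 32.0% the CCAAT letters and 9.17% the GATA factor letters. A match describes letters in this window and is not a site in use. RefSeq gave 15 starts for 8 of the 10 members, and ABCG2 and ABCA2 have other starts with other counts of matches. The window of the other ABCA2 start, not shown, had 6 GC boxes, 1 aryl hydrocarbon receptor core and 0 antioxidant cores.

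Per kilobase of exon, which allows levels of different genes to be compared, ABCC1 was the highest member in K562 (27.2 ± 2.1 CPM per kb, n = 4). ABCC5 (14.0 ± 1.83), ABCC10 (11.9 ± 0.53), ABCC4 (11.4 ± 0.33) and ABCA3 (10.3 ± 0.68) followed. The range of ABCC5 overlapped that of ABCC10, and ABCC10 and ABCC4 did not differ beyond their spread. In K/VP.5, ABCC1 reached 46.5 ± 2.99 CPM per kb, ahead of ABCC4 at 15.8 ± 0.58, ABCC10 at 12.7 ± 0.50, ABCA3 at 12.1 ± 0.85 and ABCC5 at 8.87 ± 0.98. Of these, ABCC10 and ABCA3 did not differ beyond their spread. In edit-3, ABCA3 came first at 17.4 ± 1.47 CPM per kb, and ABCC1 (14.9 ± 0.48) and ABCC4 (14.8 ± 0.71) did not differ beyond their spread. ABCA2 stood at 2.52 ± 1.43, 3.85 ± 1.40 and 6.39 ± 2.03 CPM per kb in the 3 lines. ABCG2 (0.0778, 0.756 and 0.150 CPM per kb) and ABCC3 (0.0709, 0.145 and 0.699) stayed under 1 CPM per kb in every line.

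Summed over the 10 genes, the level was 77.5 ± 2.40 CPM per kb in K562, 101 ± 4.05 in K/VP.5 and 76.1 ± 2.42 in edit-3. ABCC1 made up 35.0 ± 1.82% of that sum in K562, 46.2 ± 1.63% in K/VP.5 and 19.6 ± 0.68% in edit-3. ABCA3 made up 13.3 ± 1.05%, 12 ± 0.70% and 22.9 ± 1.98%. The sums of K562 and edit-3 differed by less than their SDs. These sums and shares depend on the same exon lengths. Reads do not measure pump protein or transport.

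**Figure D3:**
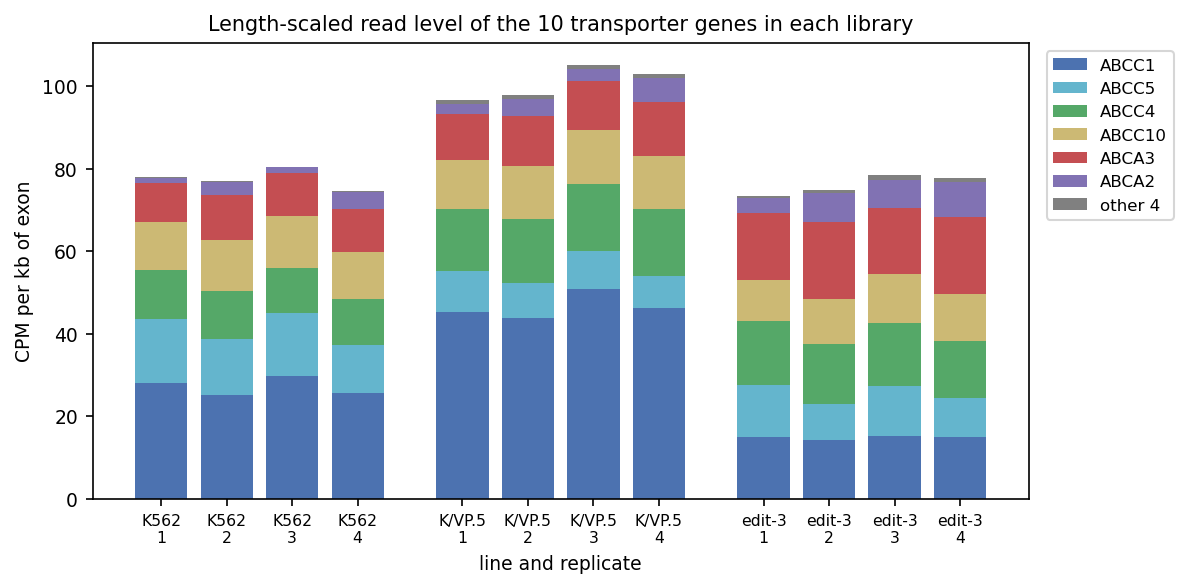
Level per kb of exon (CPM per kb, y axis from 0) of the 10 transporter genes stacked for each of the 12 libraries, with ABCB1, ABCC2, ABCC3 and ABCG2 combined as the other 4. The ABCC1 block is largest in the K/VP.5 libraries and smallest in the edit-3 libraries, and the ABCA3 block is largest in edit-3.

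Members differed in how far the libraries of 1 line spread. The pooled SD of log2 CPM within lines was 1.04 for ABCC3, larger than that of 99.4% of 13523 genes with a mean of at least 1 CPM, a rank that takes no account of level. It was 0.65 for ABCA2 (above 96.7% of genes) and 0.59 for ABCG2 (95.6%), against 0.06 for ABCC4 (1.27%), 0.08 for ABCC10 (6.06%) and 0.09 for ABCC1 (10.3%). ABCA2 and ABCC3 were both highest in replicate 4 of K562 and of K/VP.5 and both lowest in replicate 1 of edit-3. ABCG2 was lowest in replicate 4 of every line, and ABCC5 in replicate 4 of K562 and K/VP.5. On all genes, the first principal component of the deviations within lines held 49.6% of the within-line spread, and K562 replicate 4 had a score of 42.1 on it against -28.7, 9.46 and -22.9 for replicates 1 to 3. K/VP.5 replicate 4 scored 19.0 against -13.6 to -2.09, and edit-3 replicate 1 scored -30.5 against 5.58 to 13.7. The share of reads from lincRNA genes ran from 0.69% in K562 replicates 1 and 3 to 0.942% in K562 replicate 4, and from 0.780% in edit-3 replicate 1 to 1.10% in edit-3 replicate 3. Over the 12 libraries, within-line deviations correlated with the first component at 0.96 for ABCA2, 0.91 for ABCC3, -0.84 for ABCG2 and -0.84 for ABCC5. The values were 0.65 for ABCA3, -0.52 for ABCC1, -0.20 for ABCC4 and 0.13 for ABCC10. Whether these library differences had a part in the ABCA2, ABCC3, ABCG2 and ABCC5 results was not tested.

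**Figure D4:**
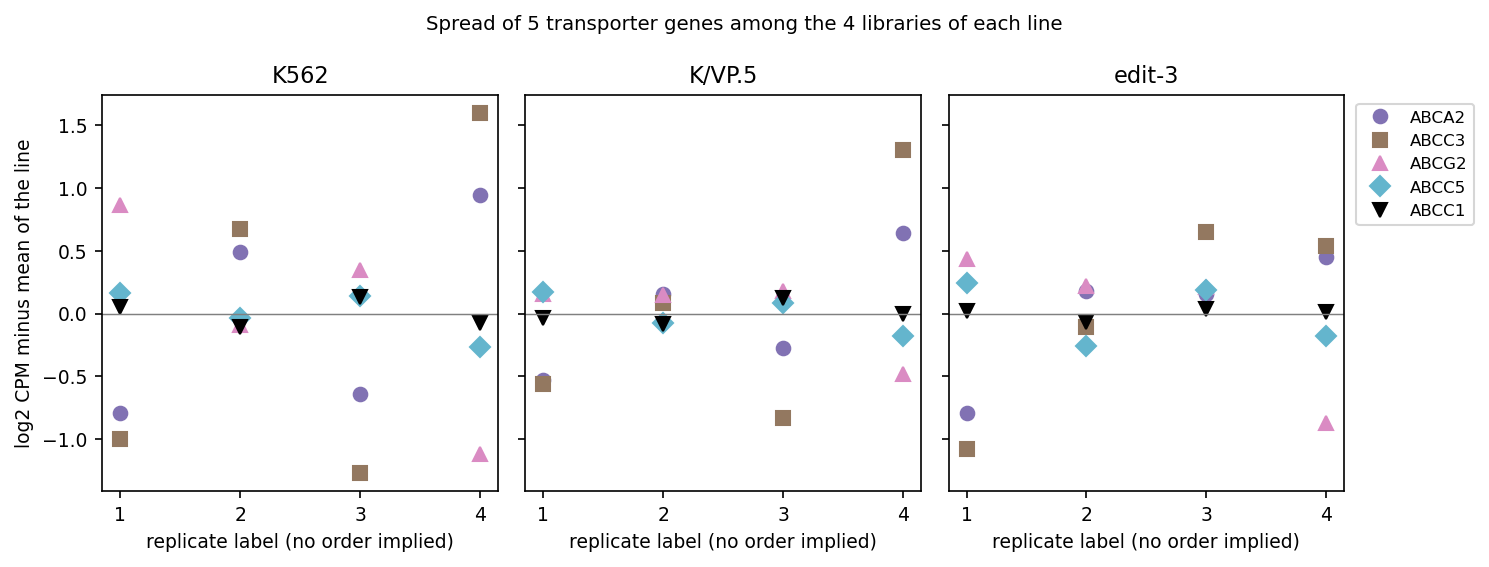
Deviation of log2 CPM from the mean of the line (y axis) for ABCA2, ABCC3, ABCG2, ABCC5 and ABCC1 in the 4 libraries of each line, with replicate labels on the x axis. ABCC1 stays near 0 in all 12 libraries, and in K562 and K/VP.5 replicate 4 ABCA2 and ABCC3 lie above 0 while ABCG2 and ABCC5 lie below it.

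The genes most like each member over the 12 libraries are given by Pearson's r of log2 CPM among 13522 genes with a mean of at least 1 CPM. These values describe 12 libraries of 3 lines, so they mostly restate the 3 line means. For ABCC1 the 5 most alike were NOMO1 and PARN, both on chromosome 16 at 14833681 and 14435701, CAMKV, SLC16A9 and SPARC (0.98 to 0.99), and the most opposite were RUNX1, AIG1 and BMX (-0.99 each). RUNX1, a hematopoietic transcription factor, had means of 46.1, 13.3 and 144 CPM in K562, K/VP.5 and edit-3. For ABCG2 they were EMC7, UAP1, AC025280.2, GNAL and TRDN (0.97 to 0.98), with GABRE, CLIC1 and PITPNM1 opposite (-0.98). For ABCC3 they were IGFBP4, AGRN, PACS2, GSN and NUDT14 (0.97 to 0.98), with CDK4, PRMT6 and SPAST opposite (-0.97 to -0.99). For ABCC4 they were GYPB, PKIB, FAM160A1, TSPAN3 and ZNF550 (0.98), with CMTM3, NSRP1 and MUTYH opposite (-0.98), and GYPB can share reads with a near-identical copy. ABCC5 was most like TSR3, NR6A1, USP7, EIF4G1 and ATR (0.94 to 0.96) and most opposite to RMI2, PABPC1 and GRINA (-0.96 to -0.97). EIF4G1 and ATR are also on chromosome 3, and EIF4G1 is among the 20 tested protein-coding genes nearest to ABCC5. ABCA3 was most like TNXB, BMP2K, SCUBE1, CAPN2 and NPTXR (0.97 to 0.98) and most opposite to GDF11, RASSF3 and MAGEB2 (-0.97 to -0.98).

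Of the 38 other ABC family genes, 20 were tested. In K/VP.5 versus K562, 6 were higher and 5 lower (median log2 0.13). In edit-3 versus K/VP.5, 7 were higher and 2 lower (0.17), and in edit-3 versus K562, 8 and 2 (0.14), where the median over all genes was below 0.01 in each comparison. These counts are 55%, 45% and 50% of the 20, beside 36.6%, 23.6% and 39.2% of all tested genes. ABCA5, a lysosomal transporter, rose from 0.380 ± 0.10 CPM in K562 to 5.05 ± 0.58 in K/VP.5 (n = 4, log2 3.71, SE 0.20, adjusted p = 1.8e-09). ABCA13 had 2 reads in K562 against 127 in K/VP.5 and 158 in edit-3. ABCF3, which lies on chromosome 3 as ABCC5 does, fell by 0.78 in K/VP.5 (SE 0.11, adjusted p = 5.5e-05). ABCC6, next to ABCC1, rose by 1.33 in K/VP.5 and fell by 1.32 in edit-3 versus K/VP.5 (SE 0.23 each, adjusted p = 0.00033 and 0.00058). Between edit-3 and K562 the ABCC6 difference was 0.004 (adjusted p = 0.99). TAP1, ABCB10, TAP2 and ABCB9 were among the rises in edit-3 versus K/VP.5, as were ABCA7 (log2 0.54, adjusted p = 0.048) and ABCA8, a gene below 1 CPM (log2 1.96, adjusted p = 0.016), both named after their values were seen, and ABCB10, a mitochondrial transporter of erythroid cells, rose by 0.96 from 113 ± 7.45 to 220 ± 14.5 CPM (SE 0.10, adjusted p = 5.7e-06).

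The list of transcription factors known to act on these transporters, with regulators of such factors, held 30 tested genes. In K/VP.5 versus K562, 4 were higher and 4 lower. The counts were 4 and 2 in edit-3 versus K/VP.5, and 5 and 4 in edit-3 versus K562. The changed shares of 26.7%, 20% and 30% were below the 36.6%, 23.6% and 39.2% of all tested genes. PGR, the progesterone receptor, fell from 29.3 ± 5.91 CPM in K562 to 0.510 ± 0.23 in K/VP.5 (n = 4, log2 -5.81, SE 0.28, adjusted p = 8.6e-10). FOXO1 and MAFK rose in K/VP.5 by 1.11 and 1.04 (adjusted p = 3.0e-06 and 0.00036), and AHRR, the repressor of the aryl hydrocarbon receptor, and TCF7L2 fell by 0.90 and 0.71 (adjusted p = 0.00042 and 0.0028). In edit-3 versus K/VP.5, EPAS1 rose by 3.32 (SE 0.55, adjusted p = 0.0012), FOXO3 by 0.94 and ZEB1 by 0.71, and MYC fell by 0.35 (SE 0.090, adjusted p = 0.011).

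Among 16 tested genes that anchor, traffic, phosphorylate or degrade these pumps, 1 was higher and 8 lower in K/VP.5 versus K562 (median -0.29), 5 and 2 in edit-3 versus K/VP.5 (-0.06), and 4 and 8 in edit-3 versus K562 (-0.29). The changed shares were 56.25%, 43.75% and 75.0%, beside 36.6%, 23.6% and 39.2% of all tested genes. MSN, the actin linker moesin, fell by 0.87 in edit-3 versus K/VP.5 (SE 0.086, adjusted p = 3.2e-06), while EZR, its relative ezrin, rose by 0.41 (SE 0.064, adjusted p = 0.00024). PIM2, of the kinase family known to phosphorylate ABCG2, fell by 0.48 in K/VP.5 (SE 0.10, adjusted p = 0.0020) and rose by 1.16 in edit-3 versus K/VP.5 (SE 0.11, adjusted p = 1.3e-06). The ubiquitin ligases MARCH8 and STUB1 fell by 0.84 and 0.77 in K/VP.5 (adjusted p = 4.9e-06 and 0.00025).

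Of 16 tested genes linked to drug transport outside the ABC family, 6 were higher and 0 lower in K/VP.5 versus K562 (median 0.23). The counts were 2 and 1 in edit-3 versus K/VP.5 (-0.09), and 6 and 2 in edit-3 versus K562 (0.14). The changed shares were 37.5%, 18.75% and 50.0%, beside 36.6%, 23.6% and 39.2% of all tested genes, so those of the first pair of comparisons were near the background. The edit-3 versus K562 count of 8 was 4 with no filter and 5 without K562 replicate 2, without K562 replicate 3 or with the 2 lines alone, and the edit-3 versus K/VP.5 count of 3 was 5 without K562 replicate 4. ATP7B, a copper pump known for cisplatin resistance, rose at both steps, from 47.1 ± 1.70 to 61.2 ± 1.79 to 112 ± 3.78 CPM (n = 4, log2 0.38 and 0.87, SE 0.061 each, adjusted p = 0.00017 and 8.1e-08). SLC22A4 and SLC22A5 rose by 0.64 and 0.88 in K/VP.5 versus K562 (SE 0.13 and 0.18, adjusted p = 0.0015 and 0.0014).

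Genes of drug metabolism, conjugation and glutathione handling were the last list. It includes enzymes that make substrates for the MRP pumps, but not all of its genes do so. Of 25 tested, 1 was higher and 9 lower in K/VP.5 versus K562 (median -0.15), 4 and 6 in edit-3 versus K/VP.5, and 3 and 10 in edit-3 versus K562 (-0.17). The changed shares were 40.0%, 40.0% and 52.0%, beside 36.6%, 23.6% and 39.2% of all tested genes, and the first is near the background. GSTP1, the main glutathione transferase of many tumor lines, fell from 353 ± 16.9 CPM in K562 to 227 ± 16.4 in K/VP.5 and 170 ± 7.22 in edit-3 (n = 4, log2 -0.64 and -0.42, SE 0.068 each, adjusted p = 3.5e-06 and 0.00037). MGST1, a microsomal glutathione transferase, had 4399 reads in K562, 1267 in K/VP.5 and 9 in edit-3 (log2 -1.97 and -6.99, SE 0.14 and 0.25, adjusted p = 5.7e-08 and 7.9e-11). SULT1A1, a sulfotransferase with a near-identical paralog, fell by 3.95 in K/VP.5 (SE 0.27, adjusted p = 3.3e-08).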

How the data were processed

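The values deposited by the authors are raw, unnormalized counts for 58395 human genes in 12 libraries. The tools named are HISAT2 2.1.0, Subread 1.5.1 and featureCounts, with GRCh38 as the build, per the submitters' processing notes. Which annotation release was used, whether strand was used in counting and how multiply matching reads were treated was not given in the sources used here. Libraries were assigned to lines by their source name, since the free-text description names parental cells for every library. The counts were fitted here in R 4.3.3 with edgeR 4.0.16 and limma 3.58.1 (TMM, filterByExpr, robust quasi-likelihood test over all 12 libraries with 1 coefficient per line), which left 18286 genes with 99.89% of the reads, and P-values were adjusted over all of these. DESeq2 1.42.0 was an alternative. The fit was tested on simulated data. Positions and exon lengths came from GENCODE 29 for GRCh38 (58275 of 58395 identifiers matched), and sequences from RefSeq on GRCh38.p14.

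The members and the gene lists were chosen with earlier results of these data known, so counts over a list are descriptions. Named genes are the 10 members, up to 5 changed genes with the smallest adjusted p per list and comparison (mean of at least 1 CPM in a line compared), and, for members changed in at least 2 comparisons, the 5 most alike and the 3 most opposite genes. Antisense genes were left out. Libraries of a line differed beyond sampling noise (chi-square per degree of freedom 7.32 to 75.3 between pairs), so none was counted as a copy.

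Replicate numbers come from the titles. Deviations from the line means correlated, between K562 and K/VP.5 libraries of the same number, at 0.38, 0.19, 0.18 and 0.60 over genes with a mean of at least 20 reads, and these libraries were taken as paired because every such value was over 0.1. Libraries of unlike numbers gave -0.48 to 0.38, and K562 replicate 3 correlated more with K/VP.5 replicate 1 (0.38) than with replicate 3, so the pairing is a hint from the data and not the design. For edit-3 the same correlations ran from -0.12 to 0.45 with K/VP.5 and from -0.13 to 0.54 with K562, and its libraries were not taken as paired.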

Additional observations from a re-analysis of the deposited data

Results flagged for a closer look

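ABCG2 in K/VP.5 replicate 4 stood apart from the other libraries of its line, at 2.69 CPM against 4.14 to 4.26 CPM. The gap to the nearest library made up 0.928 of the range of the 4, above Dixon's 95% critical value for 4 samples. Of 24 groups of 4 libraries checked (8 members in 3 lines), this was the 1 group past that value, and chance flags about 1 in 20 groups. ABCG2 was also lowest in replicate 4 of K562 (0.161 CPM) and of edit-3 (0.392 CPM). Its cause was not tested.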

How the results depend on the processing

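Of 504 values of members under alternatives, 0 reversed, 32 lost their call and 13 gained one. Of the 288 that leave out 1 library, 260 kept direction and side of the threshold, and of the other 216, 199 did. The number of members changed ran from 4 to 5 in K/VP.5 versus K562, 3 to 5 in edit-3 versus K/VP.5 and 4 to 6 in edit-3 versus K562 when 1 library was left out, and it was 3 in edit-3 versus K/VP.5 with no filter. Counts over all genes ran from 5839 to 7221, 3388 to 4926 and 6478 to 7553 with 1 library left out. The cause was not tested.

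With the replicate number as a block, 6, 7 and 7 members changed against 5, 5 and 6 without it. ABCA2 passed in edit-3 versus K/VP.5 (0.75, adjusted p = 0.0102), as did ABCC5 (0.26, adjusted p = 0.0089), and ABCG2 passed in edit-3 versus K562 (0.94, adjusted p = 0.0087). Apart from these and ABCA2 in K/VP.5 versus K562, the block changed no other member call. Edit-3 libraries share only a number with the others. GC offsets, chosen after seeing the data, changed no member call alone, and together with the block they gave the same 4 gains, among them ABCA2 in K/VP.5 versus K562 (0.72, adjusted p = 0.0046). Of the 30 transcription factors and their regulators, 13 and 10 changed with both in the first 2 comparisons, against 8 and 6. Of the 16 other genes linked to drug transport, 5 changed in edit-3 versus K/VP.5 with the block and 6 with both, against 3.

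Depth limits ABCB1, ABCC2, ABCG2 and ABCC3, which had few reads in at least 1 line.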
